A study of Caenorhabditis elegans with 6 samples.

Results

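The genes described here make and move the monoamine transmitters of the nematode Caenorhabditis elegans: serotonin, dopamine, tyramine and octopamine. They are cat-1, cat-2, cat-4, bas-1, tph-1, mod-5, dat-1, tdc-1 and tbh-1, chosen by symbol for their known role in these pathways, and all 9 were among the 46911 gene identifiers of the count tables. Read counts per gene were measured by RNA-seq in whole worms of the strain nmr-2(ok3324), a deletion allele of the NMDA receptor subunit gene nmr-2, and in wild-type N2 worms (WT). Each genotype had 3 libraries, and both were labelled as L4 larvae grown at 20 degrees on OP50 bacteria. The comparison asks whether transcripts of the monoamine pathways differ between the genotypes.

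Monoamines are made from aromatic amino acids in a small number of neurons and a few other cells, and in worms they set locomotion, feeding and egg laying. Serotonin is made from tryptophan by the hydroxylase TPH-1 and the decarboxylase BAS-1, and dopamine from tyrosine by the hydroxylase CAT-2 and the same decarboxylase. Both hydroxylases need tetrahydrobiopterin, whose synthesis begins with the GTP cyclohydrolase CAT-4. Tyramine is made from tyrosine by the decarboxylase TDC-1 and is turned into octopamine by the hydroxylase TBH-1. CAT-1 loads monoamines into synaptic vesicles, while MOD-5 and DAT-1 take serotonin and dopamine back up from outside the cell.

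Libraries held 21234748 to 27893186 counts, and 3 counts correspond to 0.106 to 0.145 CPM (counts per 1e+06 of a library's TMM-scaled total). The TMM scaling factors lay between 0.986 and 1.01 in 4 libraries but were 1.196 for the mutant library and 0.838 for the WT library numbered 2, so results are also given without both libraries where that changes a call. The deleted gene had 3, 5 and 5 counts in the mutant and 7, 2 and 10 in WT, too few to check the genotype labels. The labelled stage was set beside col-19, a cuticle collagen gene known as a marker of the adult stage, which was abundant, with 2074 ± 309 CPM across mutant libraries and 2107 ± 283.5 CPM across WT libraries (SD, n = 3). The label L4 is used here as the labels give it, although this adult marker was abundant, and the stage of the worms was not tested further. Neuronal markers were present: all 12 on the list had counts, and their summed level was 256 to 279 CPM in the mutant and 272 to 287 CPM in WT. Most of that sum came from snb-1, a synaptobrevin gene, at 128.1 ± 8.50 CPM in the mutant and 147.3 ± 7.72 CPM in WT, and from unc-11, a clathrin adaptor gene, at 76.8 ± 7.91 and 82.7 ± 5.94 CPM (SD, n = 3), while the other 10 markers had positive log2 fold changes.

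The 9 genes fell into an abundant and a rare group, with the same split in both genotypes. Levels per length are given as RPKM, reads per kb of exon per 1e+06 counts. In WT they were 98.2 ± 8.07 RPKM for tdc-1, 60.6 ± 8.75 for tbh-1, 32.8 ± 1.48 for cat-4 and 16.4 ± 0.700 for bas-1 (SD, n = 3). The next gene in WT, mod-5, was at 0.407 ± 0.0925 RPKM, 40.2-fold below bas-1. It was followed by cat-1 at 0.343 ± 0.297, dat-1 at 0.239 ± 0.122, cat-2 at 0.129 ± 0.124 and tph-1 at 0.111 ± 0.0998. Among the abundant genes, no range over WT libraries overlapped that of the next gene in the order, and the same held in the mutant. Among the rare genes, the ranges of all neighbours overlapped, so the order of neighbours is not resolved. Some genes further apart were separate. In WT, mod-5 (0.325 or above) lay above cat-2 (0.247 or below) and tph-1 (0.194 or below). In the mutant, cat-1 (0.388 or above) lay above tph-1 (0.171 or below). It also lay above cat-2 (0.383 or below), but only with exon length and TMM scaling. With coding length, mutant cat-1 began at 0.470 and cat-2 reached 0.593. On library totals alone these values were 0.393 and 0.458, so cat-1 and cat-2 are not resolved.

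In the mutant the per-length levels were 78.5 ± 14.5 for tdc-1, 52.0 ± 3.70 for tbh-1, 35.6 ± 3.04 for cat-4 and 14.3 ± 1.06 for bas-1. The highest of the rare genes there was cat-1, at 0.436 ± 0.0432 RPKM, 32.8-fold below bas-1. With coding length in place of exon length the abundant and rare groups stayed apart, though in the mutant the ranges of tbh-1 and cat-4 then overlapped. As a share of the summed per-length level of all 9 genes, tdc-1 held 47 ± 4.23% in WT and 43 ± 5.48% in the mutant. The share of tbh-1 was 28.9 ± 3.94% in WT and 28.7 ± 2.67% in the mutant. The enzymes of tyramine and octopamine therefore supplied most of this RNA, and the 5 neuronal genes at the low end each held under 1% in every library.

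**Figure D1:**
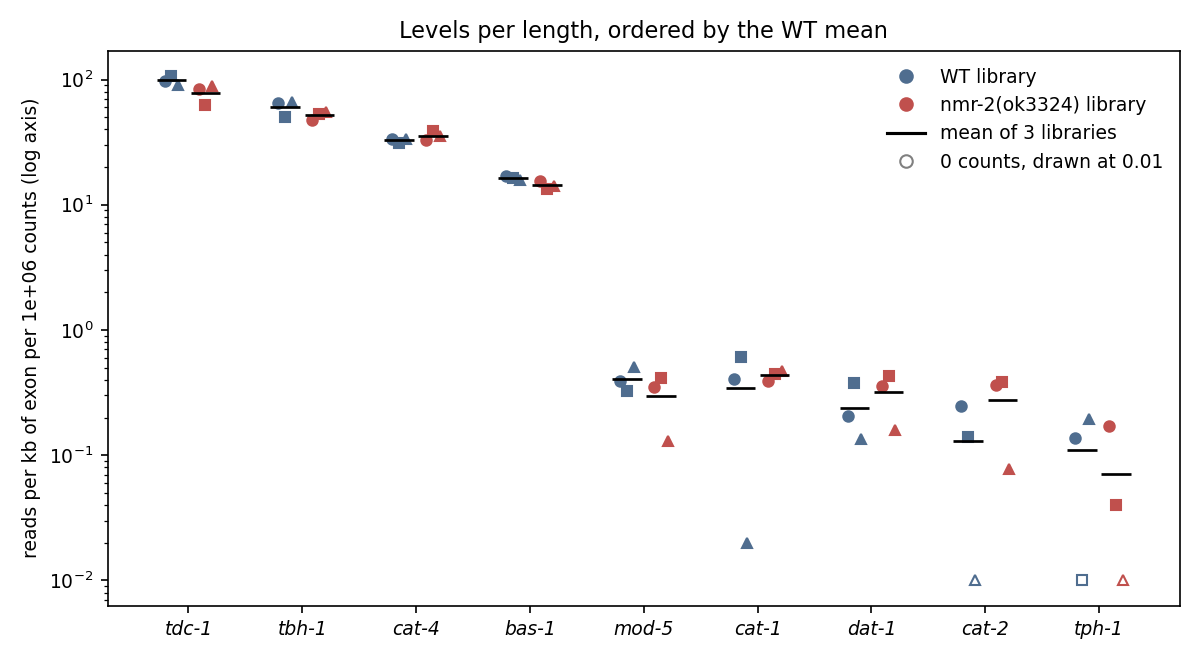
RPKM, reads per kb of exon per 1e+06 counts (log axis), for each of the 9 genes in each library, ordered by the WT mean, with WT in blue, nmr-2(ok3324) in red and the mean of 3 libraries as a line. The 4 genes on the left lie between 13.4 and 107 RPKM, and the 5 on the right lie at or below 0.603, with 3 values at 0 counts drawn as open symbols at 0.01.

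None of these genes passed the test between the genotypes. The low-count filter left 8 of the 9 to be tested, all but tph-1, and edgeR's quasi-likelihood test, adjusted over 13138 genes at 0.05, called 0 of the 8, where 2.16% of all tested genes were called (1.79% rose and 0.373% fell). DESeq2 and limma-voom also called 0 of the 8, against 3.12% and 1.96% of all genes. At an unadjusted p under 0.05 there was 1 member, tdc-1, where 17.2% of all genes had such a p. The groups did not overlap for 2 of the 8, tdc-1 and bas-1, as held for 24.4% of all tested genes. The median log2 fold change of the 8 was -0.04, beside 0.03 over all tested genes, with 4 higher and 4 lower in the mutant. Separate cultures are not named in the labels, so each p-value reflects spread among libraries that may be only technical. In whole animals, fewer cells of a type and less RNA per cell cannot be told apart.

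**Figure D2:**
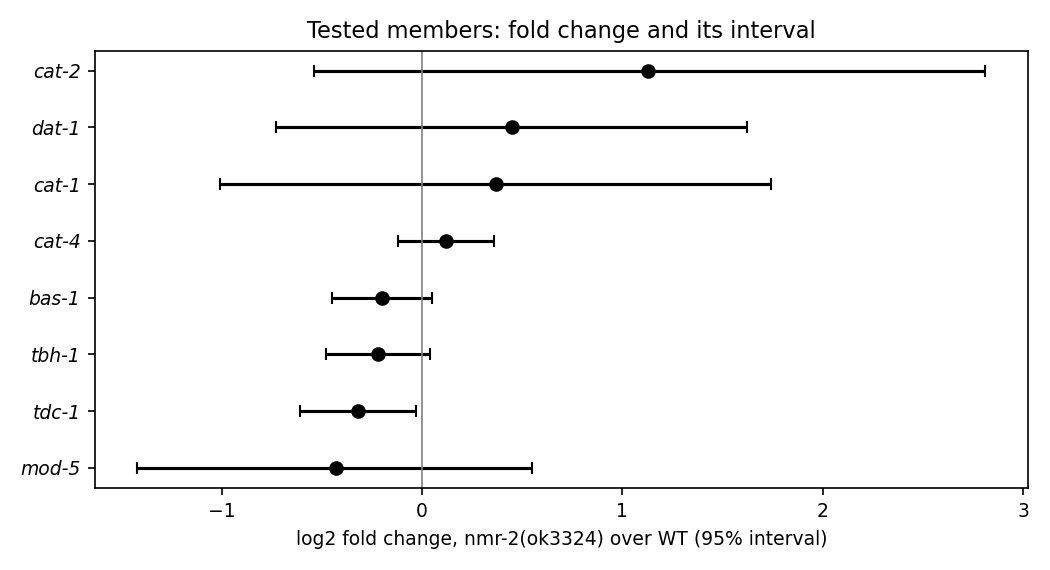
Log2 fold change of nmr-2(ok3324) over WT for the 8 tested genes, with 95% intervals from the edgeR fit. The interval is narrow for the abundant genes, such as -0.12 to 0.36 for cat-4, and wide for the rare ones, such as -0.54 to 2.81 for cat-2.

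The tyramine and octopamine enzymes were the most abundant members and lay lower in the mutant on average. tdc-1 (WBGene00006562, chromosome II, 8270597 to 8273615 in WBcel235, plus strand) is known to be used in the RIM and RIC neurons, in uv1 cells of the uterus and in the gonadal sheath. Its level was 209, 155 and 223 CPM in mutant replicates 1, 2 and 3 and 242, 266 and 226 CPM in WT replicates 1, 2 and 3. Every mutant library lay below every WT library, though the gap between 223 and 226 CPM was small beside the spread within each genotype. It had a log2 fold change of -0.32 (SE 0.14, 95% interval -0.61 to -0.03, edgeR adjusted p = 0.25, unadjusted p = 0.033), a level 0.800 times that of WT.

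The lowest of the 6 values of tdc-1 came from nmr-2(ok3324) replicate 2 and the highest from WT replicate 2, the libraries with the outlying scaling factors. Without both, the log2 fold change was -0.12 (adjusted p = 0.43). On library totals alone, where the median of all tested genes was 0.20, it was -0.16, or -0.36 relative to that median.

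tbh-1 (WBGene00006541, chromosome X, 15500256 to 15504895, minus strand), whose product makes octopamine in RIC neurons and the gonadal sheath, had 104.2, 116.7 and 119.2 CPM in the mutant and 141.2, 110.3 and 145.1 CPM in WT. The groups overlapped, because WT replicate 2 lay within the range of the mutant. Its log2 fold change was -0.22 (SE 0.12, 95% interval -0.48 to 0.04, edgeR adjusted p = 0.35). Without both libraries numbered 2, a fit with fewer libraries of each genotype, it was -0.36 (SE 0.08, edgeR adjusted p = 0.0025). That made tbh-1 the 1 member called in that fit, where 4.01% of 13219 tested genes were called. Leaving out only WT replicate 2 gave -0.35 for tbh-1 (adjusted p = 0.24). Leaving out only nmr-2(ok3324) replicate 2 gave -0.25 (adjusted p = 0.39), so neither fit called it. On library totals alone the value was -0.06, or -0.26 relative to the median of all genes.

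Within each library, tbh-1 stood at 0.569, 0.861 and 0.611 times the per-length level of tdc-1 in the mutant and at 0.665, 0.474 and 0.734 times in WT. The ranges overlapped, and the mean log2 difference of this ratio was 0.12 (2-sided exact permutation test, p = 0.7, 3 against 3 libraries). Such a test cannot go below 0.1.

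Markers of the gonad and of other tissues did not pass the test either. Of the somatic gonad sheath markers, lim-7 had a log2 fold change of 0.57 (SE 0.29) and ceh-18 0.04 (SE 0.17), and their summed level was 10.7 to 15 CPM in the mutant and 9.89 to 12 CPM in WT. All 7 germline markers had counts and negative fold changes, from -0.35 to -0.13, and 0 passed. Of these, 3 had an unadjusted p under 0.05 by edgeR, where 17.2% of all tested genes did. The summed level of all 7 was 2508 to 3166 CPM in the mutant and 3237 to 3698 CPM in WT. These sums did not overlap, by a margin of 3166 against 3237 CPM. Groups of single genes did not overlap for 24.4% of all tested genes. The lowest sum came from nmr-2(ok3324) replicate 2 and the highest from WT replicate 2, the libraries with the outlying scaling factors. Other marker lists lay the opposite way. All 5 sperm markers were positive, with a median log2 fold change of 0.86 and 3 at an unadjusted p under 0.05, and their summed level was 21.3 to 31.1 CPM in the mutant and 15.6 to 17.8 CPM in WT. All 4 pharyngeal muscle markers were positive too, with a median of 0.49 and 3 at such a p. The part of these markers in the values of tdc-1 and tbh-1 was not tested.

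The 5 genes whose profile over the 6 libraries was most like that of tdc-1 were sought by the root mean square difference of centred log2 CPM, over the 11329 tested genes whose mean reached 1 CPM. They were hda-10, a histone deacetylase family gene (0.0158), rme-2, which encodes the yolk receptor of oocytes (0.0192), cpb-1, a cytoplasmic polyadenylation element binding protein gene of the germline (0.0313), Y92H12BR.3 (0.0316) and emg-1 (0.0327). Their log2 fold changes, from -0.37 for emg-1 to -0.28 for cpb-1, lie near that of tdc-1 because the genes were chosen for its profile, and they are given as a description. Like tdc-1, all 5 were lowest in nmr-2(ok3324) replicate 2 and highest in WT replicate 2, the libraries with the outlying scaling factors. The part of scaling in this likeness was not tested.

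**Figure D3:**
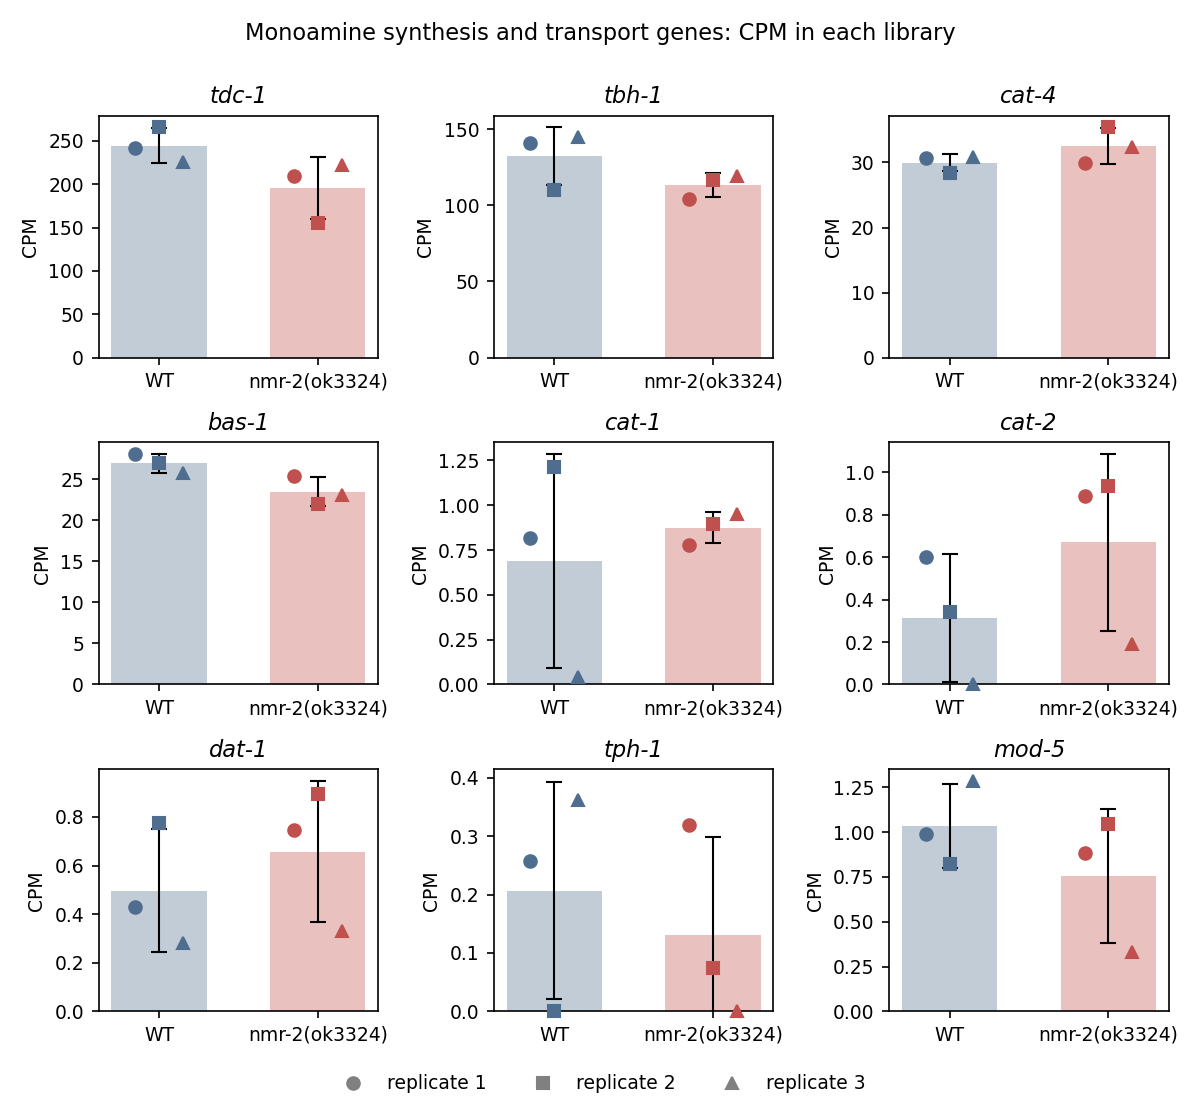
CPM of each gene in each library (points, with circles, squares and triangles for replicates 1, 2 and 3), with the mean as a bar and the SD as an error bar (n = 3). Mutant and WT points overlap for 7 of the 9 genes, and replicate 3 is the lowest library of both genotypes for cat-2 and dat-1.

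cat-4 and bas-1 serve both serotonin and dopamine. cat-4 (WBGene00000298, chromosome V, 10564880 to 10566464, plus strand) is also used in the epidermis, and worms without it have a fragile cuticle. It had 29.9, 35.4 and 32.3 CPM in the mutant and 30.7, 28.4 and 30.8 CPM in WT. The groups overlapped, with mutant replicate 1 between WT values. With a log2 fold change of 0.12 (SE 0.11, edgeR adjusted p = 0.59), the 95% interval of the fold ran from 0.918 to 1.29.

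bas-1 (WBGene00000239, chromosome III, 5612274 to 5614660, plus strand) had 25.4, 22 and 23.1 CPM in the mutant and 28, 26.9 and 25.7 CPM in WT. All 3 mutant libraries lay below all 3 WT libraries, by a margin of 25.4 against 25.7 CPM. Fitted over all libraries, the log2 fold change was -0.20 (SE 0.12, 95% interval -0.45 to 0.05, edgeR adjusted p = 0.39). On library totals alone it was -0.03, or -0.23 relative to the median of all genes, and the groups overlapped. Set against cat-4 in the same library, the per-length level of bas-1 was 0.472, 0.345 and 0.396 in the mutant and 0.507, 0.527 and 0.465 in WT (exact permutation test, p = 0.2).

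The gene just downstream of bas-1 on the same strand is basl-1, a relative of the same decarboxylase family (chromosome III, 5614948 to 5617261), which starts 287 bases past the end of bas-1. It had 9.64, 7.50 and 8.36 CPM in the mutant and 5.29, 6.16 and 4.95 CPM in WT. The groups of basl-1 thus did not overlap, as held for 24.4% of all tested genes. Its log2 fold change of 0.64 (SE 0.19, edgeR adjusted p = 0.10) was opposite in sign to that of bas-1, and became 0.82 (adjusted p = 0.015) without both libraries numbered 2. Since both genes are read in the same library, their ratio does not depend on scaling. Per length, basl-1 stood at 0.390, 0.350 and 0.372 times bas-1 in the mutant and at 0.194, 0.235 and 0.197 times in WT.

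The ratio of basl-1 to bas-1 averaged 0.371 ± 0.0199 over mutant and 0.209 ± 0.0226 over WT libraries (SD, n = 3), 1.78 times as high. The exact permutation test gave p = 0.1, the smallest that 3 against 3 libraries allow, and 0.3 adjusted over the 3 ratios computed. This ratio was chosen after the values of basl-1 were seen. No source used here names the genome build or annotation behind the counts, so reads placed near the junction of these neighbours, or shared by their related sequences, could be assigned to either.

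**Figure D4:**
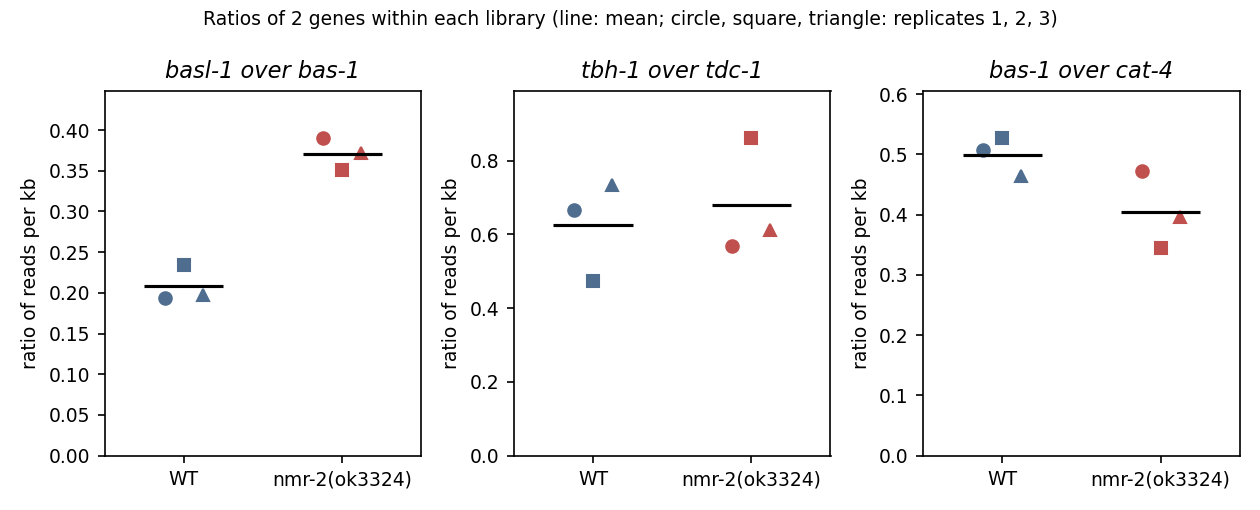
Ratio of per-length levels of 2 genes within each library for basl-1 over bas-1, tbh-1 over tdc-1 and bas-1 over cat-4, with the mean as a line. The basl-1 over bas-1 ratios lie at 0.350 or above in the mutant and at 0.235 or below in WT, while the tbh-1 over tdc-1 ratios overlap.

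The dopamine genes were rare, under 1 CPM in every library. cat-2 (WBGene00000296, chromosome II, 257819 to 261074, plus strand), which encodes tyrosine hydroxylase, had 25, 25 and 4 counts in the mutant and 14, 7 and 0 in WT. Replicate 3 was the lowest library of each genotype, and the groups overlapped. The 54 mutant and 21 WT counts correspond to a 2.32-fold ratio (95% exact interval 1.38 to 4.05), an interval that covers counting error only. With the spread between libraries included, the log2 fold change was 1.13 (SE 0.79, 95% interval -0.54 to 2.81, edgeR adjusted p = 0.45). Leaving out 1 library moved it between 0.51 (without WT replicate 3) and 2.06 (without WT replicate 1), and limma-voom gave 1.94.

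dat-1 (WBGene00000934, chromosome III, 9242975 to 9246802, plus strand), the dopamine reuptake transporter gene, had 21, 24 and 7 counts in the mutant and 10, 16 and 7 in WT. Again replicate 3 was low in both genotypes and the ranges overlapped. For dat-1 the log2 fold change was 0.45 (SE 0.55, 95% interval -0.73 to 1.62, edgeR adjusted p = 0.68), between 0.14 (without WT replicate 3) and 0.89 (without WT replicate 2) when 1 library was left out. In linear terms the interval for dat-1 ran from 0.603 to 3.07 times the WT level.

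cat-1 (WBGene00000295, chromosome X, 5705690 to 5710737, minus strand), the vesicular monoamine transporter gene used by all monoamine neurons, had 22, 24 and 20 counts in the mutant and 19, 25 and 1 in WT. The mutant libraries were close to each other, at 0.875 ± 0.0868 CPM, while WT replicate 3, at 0.0402 CPM, was far below the other WT libraries. The exact 95% interval of a count of 1 reaches 5.57, and that of 19 begins at 11.4. Over all 6 libraries the log2 fold change was 0.37 (SE 0.64, 95% interval -1.01 to 1.74, edgeR adjusted p = 0.79). It turned to -0.22 without WT replicate 3, so that 1 library decides its sign, and was 1.03 without WT replicate 2 and 1.25 by limma-voom.

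The serotonin genes were as rare. tph-1 (WBGene00006600, chromosome II, 7549335 to 7551983, plus strand), the tryptophan hydroxylase gene that marks serotonergic neurons, had 9, 2 and 0 counts in the mutant and 6, 0 and 9 in WT. Each genotype thus had a library with no count. A limit of 3 counts for a 0 corresponds to 0.142 CPM in the mutant library, replicate 3, and 0.145 CPM in the WT library, replicate 2. The exact 95% interval of a count of 0 reaches further, to 3.69 counts. The 11 mutant and 15 WT counts correspond to a ratio of 0.663 (95% exact interval 0.275 to 1.54). tph-1 did not pass the low-count filter, and in the fit without a filter it stood at -0.61 on the log2 scale (SE 1.11, edgeR adjusted p = 0.81), where 3.06% of all genes were called.

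mod-5 (WBGene00003387, chromosome I, 3034716 to 3047794, minus strand), the serotonin reuptake transporter gene, had 25, 28 and 7 counts in the mutant and 23, 17 and 32 in WT. The groups overlapped, and mutant replicate 3 was the lowest of the 6 libraries. The fitted log2 value was -0.43 (SE 0.46, 95% interval -1.42 to 0.55, edgeR adjusted p = 0.63), -0.11 (adjusted p = 0.92) without mutant replicate 3, and -0.86 (adjusted p = 0.50) without both libraries numbered 2. Neuronal markers stood beside these rare genes with a median log2 fold change of 0.34, positive in 10 of 12, of which 0 passed. The other two, snb-1 and unc-11, were the most abundant on the list. Their part in the values of the rare genes was not tested.

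Some exons of these genes overlap others on the opposite strand, and no source used here says whether the counting used strand. cat-4 shares 63 of 913 exon bases with vps-54, which had 5414 counts over all libraries. tdc-1 shares 73 of 2490 with gei-14, which had 5007. mod-5, with 7 to 32 counts per library, shares 52 of 2538 with Y54E10BR.2, which had 5890 over all libraries. tbh-1 shares 372 of 2182 with H13N06.7, which had 3 counts over all libraries, and 26 with suox-1, which had 2974. tph-1 shares 43 of 1868 with ZK1290.10, which had 37 counts over all libraries, and 102 with the non-coding gene ZK1290.19, which had 0. Smaller stretches of tph-1 lie within a piRNA gene and a further non-coding gene, neither of which had a count. If the counting ignored strand, reads of both genes in such stretches cannot be told apart. cat-1, cat-2, bas-1 and dat-1 share no exon base with another annotated gene. The span of cat-2 does overlap that of scc-2 on the opposite strand, and scc-2 had 11364 counts over all libraries. Whether reads of scc-2 were counted for cat-2 was not tested.

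The rest of the pathway was followed in 9 lists with 63 genes in the tables, of which 52 were tested. 0 rose and 0 fell by edgeR, where 2.16% of all tested genes were called, and 8 of the 52 had an unadjusted p under 0.05, where 17.2% of all tested genes did. In the same lists 0 were called by DESeq2 or limma-voom. The median log2 fold change of the 52 was 0.14, with 34 above and 18 below 0, beside 0.03 over all tested genes. Of 20 receptor genes 18 were tested, and none had an unadjusted p under 0.05.

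None of the 18 tested receptor genes passed. The 5 tested dopamine receptor genes all had positive log2 fold changes, from 0.22 to 0.87 with a median of 0.67, beside the median of 0.34 over the neuronal markers. The summed level of the list was 6.34, 6.46 and 6.32 CPM in the mutant and 6.62, 2.91 and 4.71 CPM in WT, so WT replicate 1 lay above every mutant library and WT replicate 2 was lowest. The untested dop-6 and lgc-53 had ratios of summed counts per scaled total of 1.03 (95% exact interval 0.327 to 3.35) and 1.02 (0.608 to 1.73). The smallest p among them was that of dop-3, an inhibitory receptor gene that slows locomotion, with 29, 18 and 23 counts in the mutant and 21, 5 and 9 in WT (0.87, SE 0.52, edgeR adjusted p = 0.39). Leaving out 1 library moved dop-3 between 0.55 (without WT replicate 2) and 1.59 (without WT replicate 1). Of the 6 serotonin receptor genes 4 were negative, with a median of -0.43. ser-1, an excitatory serotonin receptor gene, had 22, 44 and 36 counts in the mutant and 67, 42 and 38 in WT (-0.65, SE 0.36, adjusted p = 0.36). Of the 7 tyramine and octopamine receptor genes 3 were negative, with a median of 0.18. lgc-55, which encodes a tyramine-gated chloride channel, had 10, 15 and 9 counts in the mutant and 19, 25 and 13 in WT (-0.91, SE 0.50, adjusted p = 0.35). The groups overlapped for all 18 receptor genes, where 24.4% of all tested genes had groups that did not overlap. Whether the 3 receptor lists differ from each other was not tested.

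Of the 8 genes of monoamine breakdown 5 were tested and none passed. The 5, monoamine oxidase and catechol methyltransferase family genes, had log2 fold changes from -0.06 to 0.08. comt-3 had the smallest p of them, at 9.34 ± 0.913 CPM in the mutant and 8.84 ± 0.358 CPM in WT (0.08, SE 0.16, edgeR adjusted p = 0.83). Among the 3 that missed the low-count filter, comt-4 had 5, 2 and 4 counts in the mutant and 19, 10 and 5 in WT. Its ratio was 0.292 (95% exact interval 0.134 to 0.591, counting error only). Its groups did not overlap in CPM, by a margin of 0.190 against 0.201, and 24.4% of all tested genes had groups that did not overlap. In the fit without a filter comt-4 was not called. The ratio for comt-2, with 0, 2 and 2 counts against 1, 1 and 8, was 0.361 (0.0828 to 1.25), and comt-1 had 1 count in all.

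Genes that supply or use tetrahydrobiopterin, the cofactor begun by CAT-4, held the greatest difference among the related lists. agmo-1, which encodes the cofactor-dependent alkylglycerol monooxygenase and is needed for a sound cuticle, had 94, 77 and 50 counts in the mutant and 22, 0 and 26 in WT. All mutant libraries lay above all WT libraries. Groups did not overlap for 4 of the 5 tested genes of this list, where 24.4% of all tested genes had such groups. Of the 5, 3 were higher and 2 lower in the mutant. For agmo-1 the log2 fold change was 2.06 (SE 0.55, 95% interval 0.89 to 3.23), and it missed the threshold (edgeR adjusted p = 0.071). Without WT replicate 2, the library at 0, it was 1.51 with adjusted p = 0.020, and 1.76% of all genes were called in that fit. No other fit that left out 1 library called agmo-1. Their edgeR adjusted p ran from 0.067 (without WT replicate 3) to 0.18 (without nmr-2(ok3324) replicate 1). DESeq2 (2.08, adjusted p = 0.37) and edgeR with a replicate block (2.26, adjusted p = 0.24) did not call it either.

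The phenylalanine hydroxylase gene pah-1, a relative of tph-1 and cat-2 named after its values were seen, had a log2 fold change of -0.33 (SE 0.11, edgeR adjusted p = 0.16). It was called without nmr-2(ok3324) replicate 2 (-0.43, adjusted p = 0.046, where 1.84% of all genes were called) and without both libraries numbered 2 (-0.46, adjusted p = 0.0024). ptps-1, the next enzyme of cofactor synthesis, was at 0.38 (SE 0.21), and qdpr-1 and pcbd-1, which regenerate the cofactor, were at 0.14 (SE 0.12) and -0.27 (SE 0.14). The last 3 were also named after their values were seen.

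Other transporters and regulators did not pass. In the list of 10 SLC6 transporter genes, the family of MOD-5 and DAT-1, 8 were positive with a median log2 fold change of 0.22, and snf-2 had the smallest p (0.67, SE 0.27, edgeR adjusted p = 0.23). Of the other vesicular transmitter transporters, vglu-2, of the vesicular glutamate transporter family, was at 19.5 ± 1.24 CPM in the mutant and 17 ± 1.00 CPM in WT (0.20, SE 0.13, adjusted p = 0.42). Of 11 regulators of monoamine neuron fate 7 were tested. hlh-3, a proneural factor gene with a role in the serotonergic HSN neurons of egg laying, had 61, 49 and 37 counts in the mutant and 28, 9 and 22 in WT. Its groups did not overlap, as held for 24.4% of all tested genes, with a log2 fold change of 1.17 (SE 0.38, edgeR adjusted p = 0.15).

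**Figure D5:**
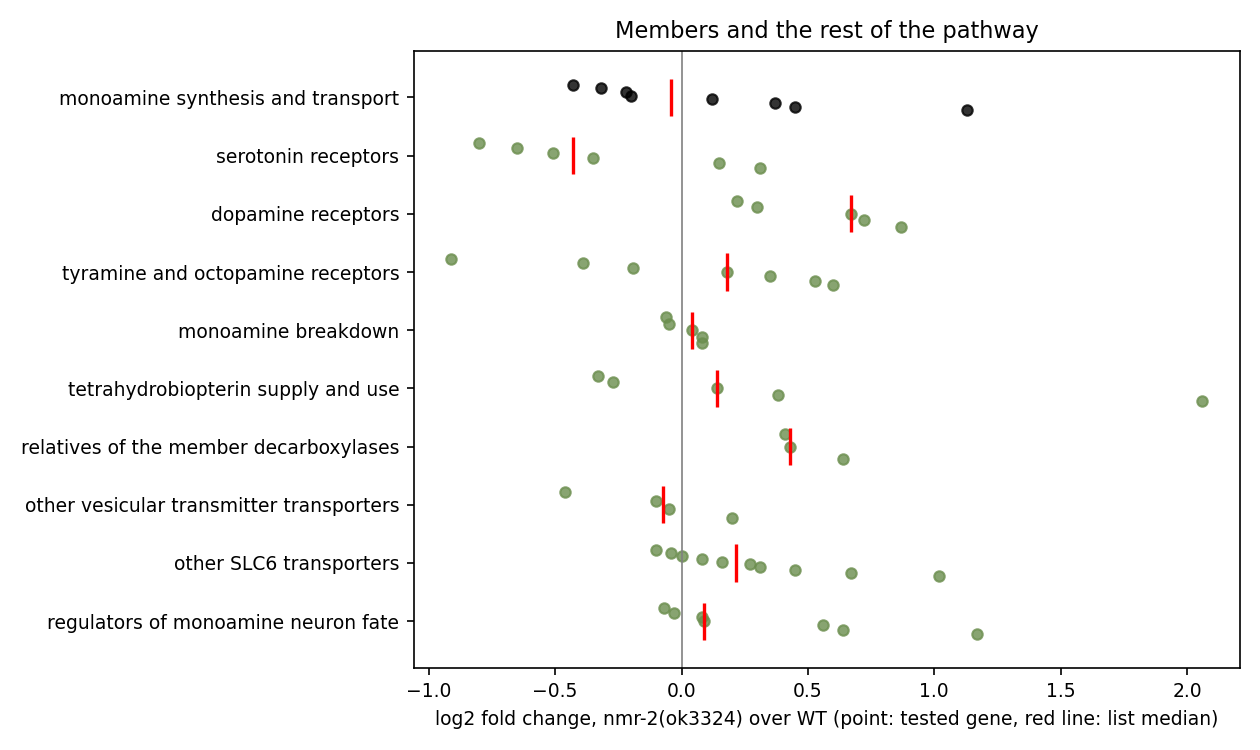
Log2 fold change of nmr-2(ok3324) over WT for each tested gene of the 9 related lists and of the monoamine synthesis and transport genes (black), with list medians in red. The dopamine receptor genes all lie above 0, the breakdown genes lie between -0.06 and 0.08, and the point at 2.06 is agmo-1.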

How the data were processed

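Per the labels' protocols, RNA came from whole synchronised worms and was sequenced by Illumina methods. The authors deposited whole-number counts per gene for each library without normalization. Per the submitters' processing notes the tools were HTSeq and DESeq2, versions unstated. Aligner, genome build, annotation and strand setting: not given in the sources used here. Symbols came from a table pairing gene identifiers with names, and positions and exon lengths from Ensembl release 115 (WBcel235), which holds 46863 of the 46911 identifiers.

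The analysis used edgeR 4.0.16 in R 4.3.3, with filterByExpr by genotype (nmr-2 kept in any case), TMM scaling, and quasi-likelihood testing with robust estimation and Benjamini-Hochberg adjustment over 13138 genes at 0.05. "Rose" and "fell" mean past that threshold. The SE is the absolute log2 fold change over the square root of F, and 95% intervals use the fit's degrees of freedom. CPM uses TMM-scaled totals, and log2 CPM a prior count of 2. The fit was also run on counts simulated from its own estimates of spread. That run cannot show how outlying libraries affect the calls, and its outcome is not used here. Count ratios have exact conditional binomial intervals and single counts exact Poisson intervals (scipy 1.17.1), which cover counting error only, as do limits of 3 counts for a 0. Alternatives were RLE factors, library totals, no filter, 1 CPM in 3 libraries, DESeq2 1.42.0, limma-voom (limma 3.58.1), a replicate block, and leaving out libraries.

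The members, lists and tests were chosen with earlier results of these data known. Genes named are the members, any listed gene past the threshold or else the smallest p of each list, and the 5 most like the member with the smallest p. For the list of relatives of the member decarboxylases that gene was basl-1. Figures were drawn with matplotlib 3.10.9.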

Additional observations from a re-analysis of the deposited data

How the results depend on the processing

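Of 108 log2 fold changes of the 8 tested members under alternatives, 106 kept their direction and side of the threshold, 1 turned (cat-1, -0.22 without WT replicate 3, with a range of -0.22 to 1.03 when 1 library was left out) and 1 passed (tbh-1). The count of members called was 0 in every fit that left out 1 library (0 to 0) and 1 without both libraries numbered 2. Their median log2 fold change was -0.04, with a range of -0.19 to 0.01 when 1 library was left out (-0.19 without WT replicate 3), 0.14 with library totals, where the median of all genes was 0.20, and -0.20 for the 4 members left by a filter of 1 CPM in 3 libraries. Related genes called numbered 0 to 1 when 1 library was left out, 1 without the low-count filter (agmo-1, 2.06, adjusted p = 3.9e-06) and 3 without both libraries numbered 2, namely agmo-1, pah-1 and basl-1. Without the filter the log2 fold change of agmo-1 was the same as in the main fit, but its SE was 0.37, against 0.55. The smaller p thus came with a smaller SE and not with a greater change. Leaving out 1 library moved comt-3 between -0.00 (without nmr-2(ok3324) replicate 3) and 0.13. Over all genes, 235 rose and 49 fell. When 1 library was left out, 151 to 226 rose and 30 to 52 fell. Without the filter 441 rose and 155 fell, with a replicate block 124 rose and 18 fell, with DESeq2 105 fell, with library totals 16 fell, and without both libraries numbered 2 185 fell. The cause was not tested. The replicate block, which called 0 members, has no support as a pairing: deviations of same-numbered libraries from their genotype means correlated at 0.0008, -0.28 and -0.10. Of 36 levels per length, 9 moved by more than 1 SD, 7 of them with coding length. For the 5 rare members, 0 to 32 counts per library limit what can be seen.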

Other observations

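A single library near 0 beside a pair of well-counted ones was uncommon, and members of these pathways were among the cases. In WT replicate 3, 1 gene had at most 1 count while both other WT libraries had at least 15, out of 11316 genes with at least 15 in those libraries, and that gene was cat-1. In WT replicate 2 there were 10 such genes of 11640, among them the dopamine receptor gene dop-5, with 18, 0 and 17 counts in WT replicates 1, 2 and 3, and agmo-1, with 22, 0 and 26. In nmr-2(ok3324) replicate 3 there were 8 of 12314, none of them a member or a related gene, and the other 3 libraries had 0 to 2. This count was made after the values of cat-1 were seen.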
